A study of Mus musculus with 2 samples.

Results

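In 2 long-read RNA-seq libraries, 7 non-coding genes that carry small nucleolar RNAs (snoRNAs) in their introns were followed: Gas5, Snhg1, Snhg3, Snhg5, Snhg8, Snhg12 and Dancr. They were taken by gene name, 7 of the 14198 annotated genes with reads in either library, and all 7 were read in both. Both libraries were made from total RNA of C2C12, a mouse myoblast line that goes back to injured thigh muscle of C3H mice. They are labelled as biological replicates 1 and 2 of 1 group, for which no treatment is named. The only comparison the design holds is thus between the 2 replicates. The labels used here do not say whether the cells were growing or differentiating, nor which sequencing platform was used.

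A snoRNA host gene is transcribed, spliced and then parted: the introns release snoRNAs, which guide the chemical modification of ribosomal RNA, and the joined exons are left over as a long non-coding RNA. Box C/D snoRNAs guide 2′-O-methylation and box H/ACA snoRNAs guide pseudouridylation. Many hosts, Gas5 among them, start with a run of pyrimidines (a 5′ terminal oligopyrimidine tract, as in ribosomal protein mRNAs), and their spliced RNAs are known to be cleared by nonsense-mediated decay when translated. Gas5 was named for its rise in growth-arrested cells, Dancr for its effect on differentiation in progenitor cells.

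The tables held 791850 reads for replicate 1 and 735077 for replicate 2, of which 773408 and 722647 belonged to annotated genes. Levels are given as reads per 1000000 annotated-gene reads (CPM), so that 1 read was worth 1.29 and 1.38 CPM and a gene without reads could lie at up to 3.88 and 4.15 CPM (3 reads; counting error only). The myoblast markers Des, Myod1, Cdh15 and Itga7 summed to 1625 and 2161 CPM. Of these 4, Des alone was called different between replicates (1139 and 1643 CPM, log2 ratio 0.53, adjusted p = 5.84e-14 by the exact binomial test across all genes), and it made most of the difference in the sum. These 4 do not stand for all muscle genes. Myf5, outside the list, was lower in replicate 2 (278 and 83.0 CPM, log2 ratio -1.73, adjusted p = 1.05e-16 by the exact binomial test). Of 5 markers of endothelial, blood, fibroblast-like and neuronal cells, 3 had no read and all together made 1.29 and 2.77 CPM.

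The middle of the leading Gas5 structure, the intron chain with most Gas5 reads, is shown first, because most of what follows on Gas5 turns on it. The whole structure lies on mm10 chromosome 1, plus strand, with 10 exons and 449 bases. Its exons 4 to 8 (chr1:161036208-161038037, 206 bases once joined) were built from the GENCODE M21 sequence at the exon positions of the deposited model. The reads' own letters were not used. Capitals mark 19 bases that no annotated Gas5 transcript places at those exon borders.

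Gas5 exons 4 to 8: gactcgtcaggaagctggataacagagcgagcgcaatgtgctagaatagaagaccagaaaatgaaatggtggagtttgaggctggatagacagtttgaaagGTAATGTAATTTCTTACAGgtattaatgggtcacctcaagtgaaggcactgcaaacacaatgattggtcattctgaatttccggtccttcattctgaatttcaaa

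Gas5 gave 153 reads in replicate 1 and 109 in replicate 2, which is 198 and 151 CPM (174 ± 33.2 CPM, SD, n = 2). Gas5 was read less in replicate 2, and no other host gave as many reads in either library. In a bulk library, more cells with an RNA and more of it per cell cannot be told apart. Snhg8 gave 46 and 47 reads, or 59.5 and 65.0 CPM (62.3 ± 3.93 CPM, SD, n = 2). Snhg8 was the only one of the 6 hosts with 10 or more reads whose level was higher in replicate 2.

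Snhg5 gave 35 and 27 reads, or 45.3 and 37.4 CPM (41.3 ± 5.58 CPM, SD, n = 2). Snhg3 gave 18 and 16 reads, 23.3 and 22.1 CPM (22.7 ± 0.80 CPM, SD, n = 2), and Snhg1 gave 17 and 13 reads, 22.0 and 18.0 CPM (19.985 ± 2.82 CPM, SD, n = 2). Both were lower in replicate 2, by 2 and 4 reads. Snhg12 gave 15 and 12 reads, 19.4 and 16.6 CPM (18.0 ± 1.97 CPM, SD, n = 2), again slightly lower in replicate 2. Dancr gave 2 reads and 1 read, both at or under what 3 reads allow, and no ratio is drawn from it.

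**Figure D1:**
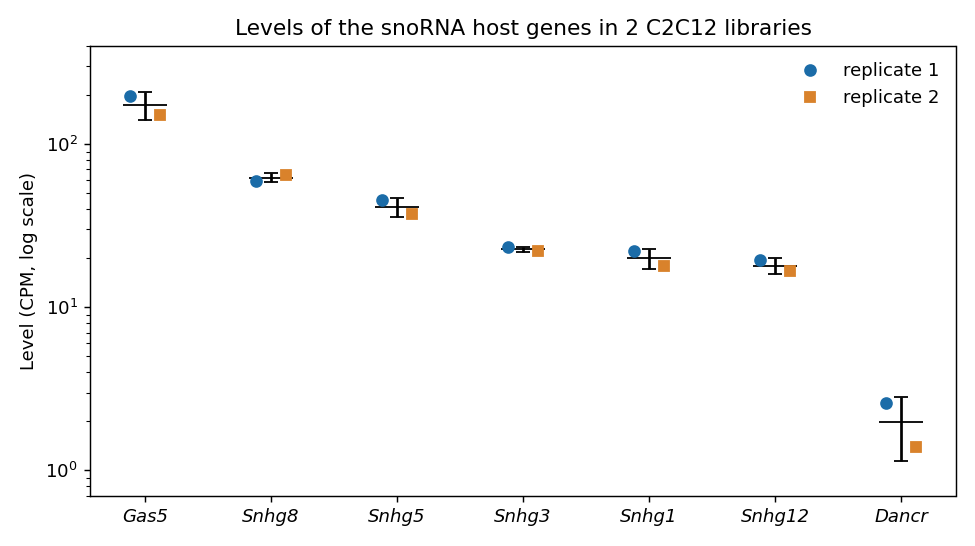
Level of each host gene in CPM (log axis, not divided by length), with circles for replicate 1, squares for replicate 2, and a bar with whiskers for the mean ± SD of the 2 libraries. Gas5 sits at 151 to 198 CPM, Dancr at 1.38 to 2.59 CPM, and the other 5 lie between 16.6 and 65.0 CPM.

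In CPM, where a read counts once whatever its length, Gas5 (198 and 151) stood above Snhg8 (59.5 and 65.0) with no overlap. Levels were also set per kilobase of the longest annotated transcript, which lowers genes with a long annotated form. On that scale Snhg8 (76.6 and 83.8 CPM per kilobase) and Gas5 (77.4 and 59.0) overlapped, and both were above the other hosts. Snhg3 followed at 40.1 and 38.1 CPM per kilobase, then Snhg5 at 37.1 and 30.6. Snhg12 had 12.6 and 10.8 CPM per kilobase and Snhg1 had 8.06 and 6.59, and these did not overlap. Dancr came last, at 1.10 and 0.59 CPM per kilobase. This order depends on the division by length and on the length used. The longest annotated forms of Gas5 (2556 bases), Snhg1 (2728), Snhg12 (1538) and Snhg8 (776) are longer than the structures most read (449, 605, 606 and 448 bases). Per kilobase of the structure most read, a scale added after the data were seen, Gas5 stood at 441 and 336 CPM per kilobase, 2.79 times the mean of Snhg8 at 133 and 145, with no overlap. Snhg3 (53.3 and 50.7) and Snhg5 (45.1 and 37.2) followed on this scale, then Snhg1 (36.3 and 29.7) and Snhg12 (32.0 and 27.4), whose ranges overlapped.

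The 7 genes together gave 286 and 225 reads, 370 and 311 CPM (341 ± 41.3 CPM, SD, n = 2). Gas5 made 53.5% of these reads in replicate 1 and 48.4% in replicate 2.

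Whether the replicates differed was tested for every annotated gene with at least 10 reads over both libraries, by a 2-sided exact binomial test with Benjamini-Hochberg adjustment at 0.05. None of the 6 hosts tested was called, beside 3.98% of all 8940 genes tested. Gas5 had the smallest p, with a log2 ratio of replicate 2 over replicate 1 of -0.39 (counting SE 0.18), an unadjusted p of 0.0305 and an adjusted p of 0.275 by the exact binomial test. It was the 1 host at an unadjusted p under 0.05, as were 1246 of all genes. The hosts' median log2 ratio was -0.24 with 5 of 6 below 0, beside a median of 0.06 over all genes tested with 4052 of 8940 below 0. With 2 libraries the p-values measure counting error, and the spread between these libraries was larger than that (chi-square of 2.49 per degree of freedom over all genes). Of the 356 genes called, 34.8% were higher in replicate 2. With TMM scaling that share was 21.3% and with DESeq2 size factors 19.8%, and under both the hosts stayed uncalled.

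Few Gas5 reads followed an annotated transcript, while most reads of the other well-read hosts did. The deposited tables file each transcript model as annotated, as a new combination of annotated splice sites (NIC), as holding a splice site that is not annotated (NNC), as part of an annotated transcript (ISM) or as genomic. Gas5 reads were filed as annotated in 8 of 153 cases in replicate 1 (5.23%, Wilson 95% interval 2.67% to 9.98%) and in 5 of 109 in replicate 2 (4.59%, 1.98% to 10.3%). NIC models took 47.7% and 59.6% of Gas5 reads and NNC models 30.1% and 23.9%. The remaining 17.0% and 11.9% were ISM. These classes are given as filed and did not always match GENCODE M21. A Gas5 chain with 11 and 6 reads, filed as ISM, holds an inner exon border that no annotated Gas5 transcript has. Some Gas5 chains were filed as NIC in 1 model and as NNC in another. Over the 2 libraries NIC and NNC models made 80.6% of Gas5 reads on average. That share was larger in 26 of the 4960 genes with at least 20 reads in each library, whose median was 6.13%.

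The other 6 hosts pooled had 89.5% and 87.1% of their reads on annotated transcripts, beside 77.3% and 80.7% for all annotated genes. All 46 Snhg8 reads of replicate 1 and 45 of the 47 of replicate 2 were Snhg8-201, a spliced transcript of 3 exons and 448 bases. Snhg3 had all 18 and 15 of 16 reads on annotated transcripts, and Snhg12 all 15 and 11 of 12. Snhg1 had 82.4% and 76.9% of its reads there and Snhg5 68.6% and 74.1%. Snhg5 was the only host with genomic-class reads, 4 in replicate 1 and 0 in replicate 2.

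**Figure D2:**
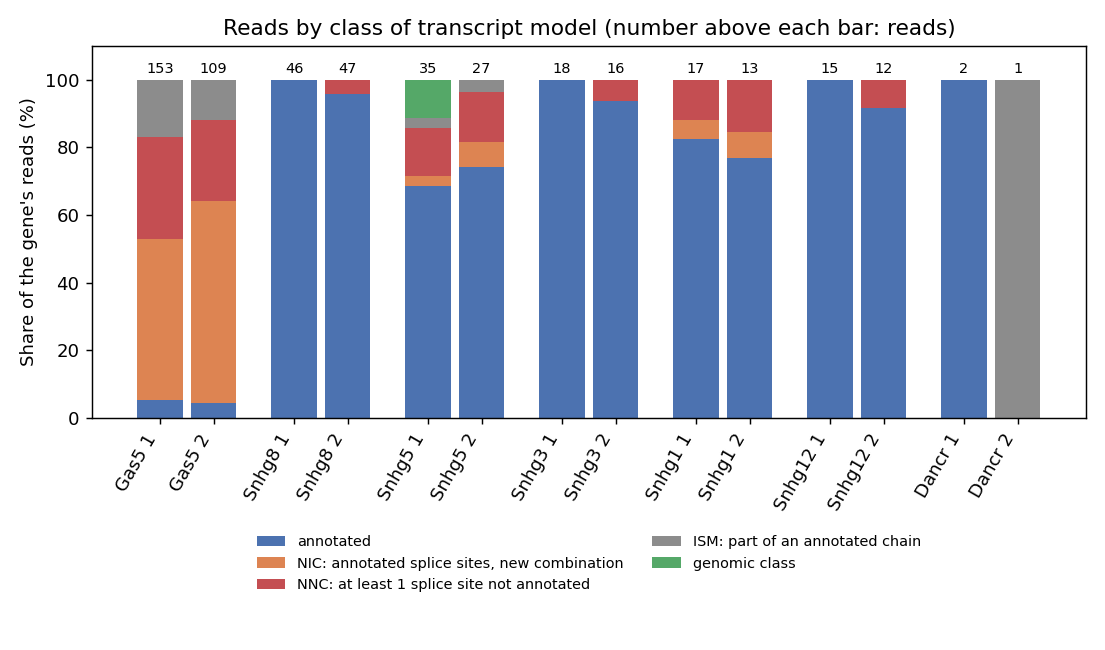
Share of each host's reads in percent by class of transcript model, 1 bar per gene and library, with the number of reads above the bar. Annotated models fill 5.23% and 4.59% of the Gas5 bars and 68.6% to 100% of those of Snhg8, Snhg5, Snhg3, Snhg1 and Snhg12; the Dancr bars rest on 2 reads and 1 read.

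The 7 genes gave 70 and 65 different intron chains (the ordered set of introns a read joins) in the 2 libraries, 107 in either and 28 in both. Of the 107, 88 matched no annotated transcript and 71 rested on 1 read. Gas5 supplied 71 of them, 48 in replicate 1 and 39 in replicate 2, with 16 in both, and 69 of the 71 were not annotated. Those 16 shared chains still carried 76.5% and 76.1% of Gas5 reads.

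To compare genes of unlike depth, the number of different structures expected in 20 reads was computed. It was 11.6 and 11.3 for Gas5 (mean 11.5), and 122 of 4960 genes had a higher mean. Snhg5, at a mean of 7.24, had 815 genes above it, and Snhg8, at 1.43, had 4695. The median gene had 4.28. In 10 reads, a measure added after the data were seen, Snhg1 gave 3.71, Snhg12 3.37 and Snhg3 2.62 structures, beside 6.85 for Gas5, 1.21 for Snhg8 and a median of 3.17 over 6685 genes. Snhg1 and Snhg12 thus lay a little above the middle gene and Snhg3 a little below it.

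**Figure D3:**
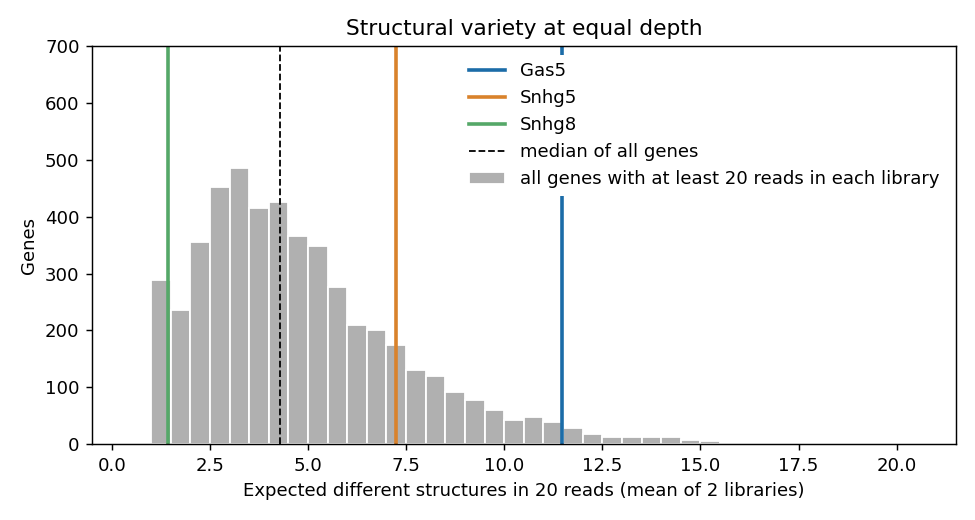
Histogram of all 4960 genes with at least 20 reads in each library by the expected number of different structures in 20 reads (x axis, mean of 2 libraries; y axis, genes), with solid lines for 3 hosts and a dashed line for the median gene at 4.28. Snhg8 stands at the low edge (1.43), Snhg5 at 7.24 and Gas5 in the right tail at 11.5.

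The leading Gas5 structure printed above carried 46 and 39 reads, 30.1% and 35.8% of the gene's reads. Its share of the reads on complete models (annotated, NIC or NNC) was 36.2% and 40.6%, a difference that was not called by Fisher's exact test across genes (adjusted p = 1). The next 2 chains, of 9 and 11 exons, had 14 and 12 reads and 12 and 7 reads. Only 2 annotated intron chains were read at all: Gas5-209, which leaves out 2 exons of the leading chain, in 7 and 3 reads, and Gas5-203, with 10 exons, in 1 read and 2 reads.

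The leading structure is filed as NIC, yet neither border of its capital bases is an exon border in any of the 25 annotated Gas5 transcripts. Its 6th exon runs 4 bases past the annotated end at 161036852, adding gtaa. Its 7th exon starts 15 bases ahead of the annotated start at 161037505, adding tgtaatttcttacag. The intron between them, chr1:161036857-161037489, was joined by 95 and 80 reads, while the annotated intron chr1:161036853-161037504 was joined by 2 and 2. An annotated exon of 28 bases (chr1:161037288-161037315), found in 9 of the 25 annotated transcripts, lies inside that intron. No read in either library held it with its annotated borders, and 14 and 6 reads held its 3′ border at the end of a longer exon.

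A like pattern was read at another short exon. The annotated 31-base exon chr1:161036549-161036579 was read with its own borders in 95 and 66 Gas5 reads (62.1% and 60.6%). In 41 and 26 reads (26.8% and 23.9%) it was skipped, and the exon before it ran 12, 14 or 16 bases into the intron. In 4 and 7 reads it was skipped with both neighbouring borders as annotated. For the 28-base exon, skipping with a moved border made 122 and 93 reads (79.7% and 85.3%). The short exons and the bases found in their place are given together, all in mm10 plus-strand orientation, so that they can be compared.

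exon of 28 bases: gtacaaataatggtttgaataaagaaag
added where it is skipped, 95 and 80 reads: gtaatgtaatttcttacag
added where it is skipped, 25 and 12 reads: gtaagaatgtaatttcttacag
exon of 31 bases: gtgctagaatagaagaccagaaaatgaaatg
added where it is skipped, 20 and 16 reads: gtaagcaatttt
added where it is skipped, 7 and 5 reads: gtaagcaattttgt
added where it is skipped, 14 and 5 reads: gtaagcaattttgtgt

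Each added stretch is read on from an annotated exon end, so by its making it begins with the first bases of the annotated intron, here gta. The 28-base exon begins with gta as well. Both stretches added at the 28-base exon end at the same annotated exon start, so they share their last 15 bases. The intron as read, chr1:161036857-161037489, begins with gt and ends with ag, as does the annotated chr1:161036853-161037504. The origin of the added bases was not tested. When splice sites within 20 bases of an annotated one of Gas5 were moved to it, an alternative chosen after the data were seen, the leading chain became that of Gas5-203 with 49 and 41 reads. The share of Gas5 reads on annotated chains rose from 5.23% and 4.59% to 37.3% and 40.4%, and its different chains went from 71 to 55. Over all genes the same step took the share of multi-exon reads on annotated chains from 81.9% and 83.0% to 84.2% and 85.6%. After it, Gas5 still gave 9.75 different structures in 20 reads, with 207 of 4960 genes above it and a median of 3.77.

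**Figure D4:**
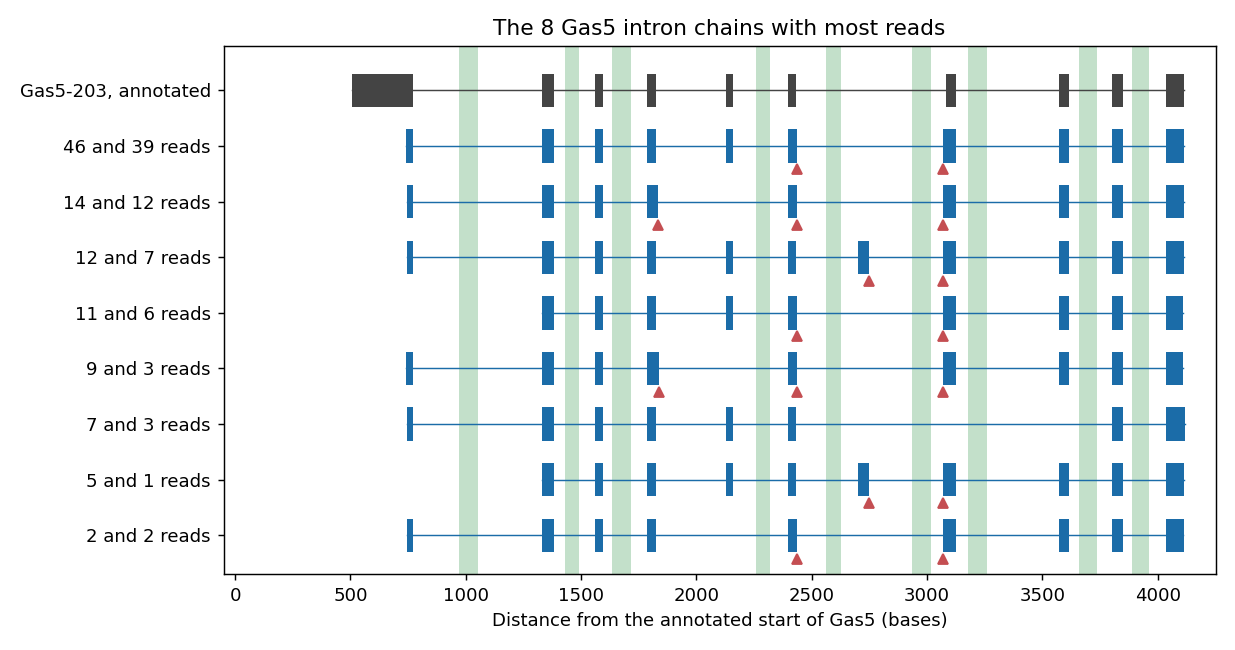
Exons (boxes) of the annotated Gas5-203 (grey, top) and of the 8 Gas5 intron chains with most reads (blue, reads in replicates 1 and 2 at the left), by distance in bases from the annotated gene start; green bands are the 9 snoRNA loci and red triangles mark inner exon borders that no annotated Gas5 transcript has. All snoRNA bands fall between exons in these 8 chains, and 7 of the 8 hold at least 1 triangle.

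For the other hosts with over 3 reads the leading structure was annotated in each case, Snhg8-201 among them. Snhg1-211, with 10 exons and 605 bases, took 13 of 17 and 9 of 13 reads, followed by Snhg1-207 and a chain of 9 exons that is not annotated, each with 1 and 1. Snhg3-204, with 3 exons and 437 bases, took 16 of 18 and 12 of 16 reads, followed by Snhg3-202 (1 and 2) and Snhg3-203 (1 and 1). Snhg5-201, with 5 exons and 1004 bases, took 17 of 35 and 15 of 27 reads, followed by Snhg5-202 (3 and 4) and an NNC chain of 6 exons (4 and 2). Snhg12-206, with 5 exons and 606 bases, took 11 of 15 and 9 of 12 reads, followed by Snhg12-210 with 2 and 0. Of the 3 Dancr reads, 1 was Dancr-203, 1 was the unspliced Dancr-204 of 2347 bases and 1 was part of an annotated chain.

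Leading-structure use was tested for Gas5, Snhg5 and Snhg8, the 3 hosts that reached 20 reads on complete models in both libraries. None was called by Fisher's exact test with Benjamini-Hochberg adjustment, and none had an unadjusted p under 0.05, beside 0.0934% called and 167 at an unadjusted p under 0.05 of all 4281 genes tested. Snhg8-201 made 100% and 95.7% of its gene's complete-model reads, and Snhg5-201 made 56.7% and 57.7%.

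Reads that kept an annotated intron, meaning an intron that at least 1 other read of the gene joined, came mainly from Snhg5 and Gas5. Snhg5 kept an intron in 22 of 35 reads in replicate 1 (62.9%, Wilson 95% interval 46.3% to 76.8%) and in 18 of 27 in replicate 2 (66.7%, 47.8% to 81.4%). Gas5 did so in 21 of 153 reads (13.7%, 9.16% to 20.1%) and 13 of 109 (11.9%, 7.10% to 19.3%). Snhg12 had 3 of 15 and 2 of 12 such reads, Snhg1 had 0 of 17 and 1 of 13, and Dancr 1 of 2 and 1 of 1. Snhg8 had 0 of 46 and 0 of 47, with upper Wilson limits of 7.71% and 7.56%, and Snhg3 had 0 of 18 and 0 of 16.

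Of the 4751 genes with at least 20 reads in each library and a joined intron, 110 had a larger mean share than Snhg5 and 356 a larger one than Gas5. The median gene stood at 0.10%, and 2349 genes at 0. None of the 3 hosts tested (Gas5, Snhg5 and Snhg8) differed between replicates by Fisher's exact test with Benjamini-Hochberg adjustment, and none had an unadjusted p under 0.05, beside 0.863% called and 159 at an unadjusted p under 0.05 among all 4751. The 7 genes pooled kept an intron in 16.4% and 15.6% of reads. Without Gas5 and Snhg5 the share was 4.08% and 4.49%, beside 4.55% and 4.45% over all genes.

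The intron that Snhg5 kept most holds no snoRNA. It is the first intron of the gene, chr9:88522587-88522850 on the minus strand, 264 bases, joined by 4 and 5 reads and kept by 22 and 18. It lies inside the long first exon of Snhg5-201, which GENCODE M21 annotates as a lincRNA and not as a retained-intron transcript, so most of these reads followed an annotated structure. Another intron without a snoRNA, chr9:88521976-88522306, was joined by 24 and 25 reads and kept by 4 and 2. The 2 Snhg5 introns that hold snoRNAs were nearly always removed: the one with Snord50a was joined by 30 and 26 reads and kept by 1 and 0, the one with Snord50b joined by 30 and 24 and kept by 0 and 1.

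Over the 7 hosts, annotated and joined introns that hold a snoRNA were kept in 6.10% and 3.92% of intron crossings (32 introns), and those without one in 14.6% and 12.7% (7 introns). A crossing is 1 read over 1 intron, so a read counts once for each intron it joins or keeps, overlapping alternative introns of Gas5 included, and these are not shares of reads. Joins of unannotated introns are left out, among them chr1:161036857-161037489 of Gas5, which spans Snord78 and was joined by 95 and 80 reads. Reads that keep Snord78 still count against annotated introns there, such as chr1:161036853-161037123, joined by 25 and 14 reads and kept by 18 and 7. The shares with Gas5 thus do not tell how often that stretch was kept. Without Gas5 the shares of crossings were 2.09% and 3.36% with a snoRNA against 18.2% and 15.8% without one. The introns without a snoRNA are few, and the Snhg5 first intron supplied 22 of 37 and 18 of 26 of their kept reads.

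The snoRNAs themselves were then followed one by one. GENCODE M21 places 27 snoRNA loci whole inside these genes on the same strand: 9 in Gas5, 8 in Snhg1, 4 in Snhg12, 2 each in Snhg3 and Snhg5, and 1 each in Snhg8 and Dancr. One of the 9 in Gas5 carries a miRNA name, Mir5117, with the gene type snoRNA. A read was counted as keeping a snoRNA when 1 of its exons held the whole locus, and as removing it when the locus lay whole inside an intron. This measure was added after the retention shares were seen. Of the 27 loci, 22 were kept in at least 1 read.

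For 5 hosts 1 snoRNA is printed from GENCODE M21, 5′ to 3′: for Gas5, Snhg5 and Snhg12 the one kept in most reads, for Snhg8 and Snhg3 one that no read kept. Snord78 and Snord50b are box C/D RNAs, and the capitals mark box C (TGATGA, in the first 26 bases) and box D (CTGA, in the last 20). The other 3 are box H/ACA RNAs, and the capitals mark ACA in the last 12 bases.

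Snord78: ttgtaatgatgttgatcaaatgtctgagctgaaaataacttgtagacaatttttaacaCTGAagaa
Snord50b: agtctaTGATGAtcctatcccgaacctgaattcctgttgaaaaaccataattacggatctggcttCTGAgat
Snora16a: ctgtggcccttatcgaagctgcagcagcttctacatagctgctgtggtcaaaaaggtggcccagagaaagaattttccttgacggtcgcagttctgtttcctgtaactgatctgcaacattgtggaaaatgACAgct
Snora24: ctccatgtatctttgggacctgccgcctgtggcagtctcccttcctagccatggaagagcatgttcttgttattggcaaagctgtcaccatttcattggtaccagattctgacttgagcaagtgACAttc
Snora73b: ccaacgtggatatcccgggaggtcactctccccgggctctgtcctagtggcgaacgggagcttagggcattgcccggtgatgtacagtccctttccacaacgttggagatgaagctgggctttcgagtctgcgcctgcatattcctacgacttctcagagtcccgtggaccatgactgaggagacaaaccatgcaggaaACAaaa

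The letters TGATGA were not found in the first 26 bases of Snord78. Both boxes stood in these windows in 84.2% of the 19 host snoRNAs under 100 bases and in 64.3% of the 462 annotated snoRNAs of that length, on the strand of the gene. The ACA stood in its window in 75.0% of the 8 longer host snoRNAs and in 63.8% of the 1096 longer annotated ones. These sets were split by length and not by kind. The 8 include Snord22 of Snhg1 (126 bases), which carries a box C/D name.

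Snord78 (chr1:161036984-161037049), in the stretch of Gas5 ahead of the 28-base exon, had the highest kept share of the loci in the 7 hosts that at least 20 reads crossed. It was kept in 18 of 153 reads in replicate 1 (11.8%) and in 7 of 109 in replicate 2 (6.42%), or 9.54% of both (Wilson 95% interval 6.55% to 13.7%). In 12 and 4 of these reads the exon that held it was chr1:161036820-161037315, 496 bases, which is found in 2 annotated Gas5 transcripts. The other 8 loci of Gas5 were kept in 1.15% to 3.52% of reads over both libraries, and the interval of the highest of them reached 6.55%. The last snoRNA of Gas5, Gm25789 (chr1:161038308-161038383), was kept least, in 2 of 153 and 1 of 109 reads.

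In Snhg1, 6 of the 8 snoRNAs were kept, each in 1 read of replicate 2, where only 1 read of the gene kept an intron. The 2 that were never kept, Gm25855 and Gm24453, had been removed in 26 and 30 reads. In Snhg12, Snora16a (chr4:132309464-132309600) was kept in 2 of 14 reads and in 0 of 11, and Snora44, Snora61 and Snord99 in 1 read each over both libraries. Snord50b of Snhg5 was kept in 1 of 31 and 2 of 27 reads and Snord50a in 1 of 31 and 0 of 26. Snora24 of Snhg8 (chr3:123507937-123508066) was removed in all 93 reads (upper Wilson limit 3.97%). Snora73a and Snora73b of Snhg3 were removed in all 31 and 34 reads that crossed them (upper limits 11.0% and 10.2%). Snora26 of Dancr was kept in 1 of 3 reads.

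For comparison, the same count was made for every snoRNA with at least 20 reads over both libraries in a host gene. The 26 loci, in 6 of the 7 genes, had a median kept share of 3.33%, a pooled share of 3.18% and 5 loci at 0. That median is the value of the Snhg1 loci that were kept, all by the same 1 read of replicate 2. The 209 loci in 133 other hosts had a median of 0, a pooled share of 0.51% and 128 loci at 0, and 3 of them had a larger share than Snord78: Gm26083 in Snhg20 (4 of 25 reads), Mir1949 (3 of 20) and Gm22589 in Ddx39b (48 of 417). Of these, the 16 loci in 11 hosts that are not protein-coding had a median of 1.33% and a pooled share of 1.57%, and the 193 loci in 122 protein-coding hosts a median of 0 and a pooled share of 0.48%. Loci of 1 host share its reads, and no test was made of the difference.

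**Figure D5:**
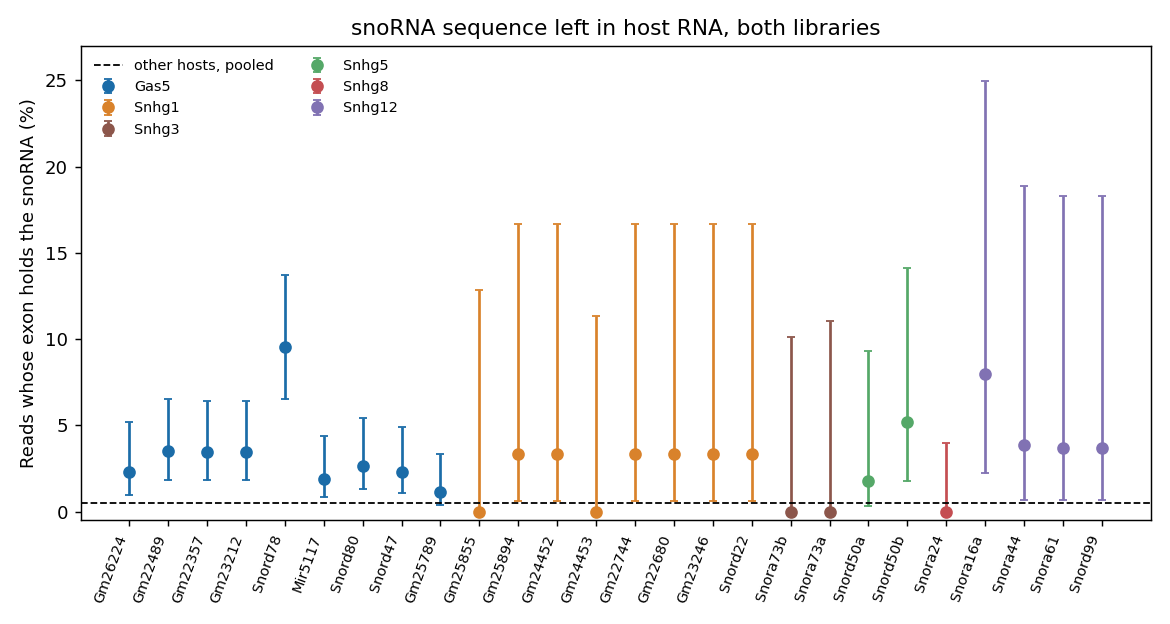
Share in percent of host reads whose exon holds the whole snoRNA, for 26 loci in 6 hosts (both libraries together; bars are Wilson 95% intervals, counting error only), with a dashed line at the pooled share of other hosts, 0.51%. Snord78 in Gas5 stands at 9.54%, the loci of Snhg3 and Snhg8 at 0, and most intervals outside Gas5 are wide.

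The 5′ ends of NIC and NNC models were compared with promoter windows of RefSeq (GRCm38.p6, 300 bases around each gene's start). Annotated models carry annotated ends in these files and tell nothing of where reads began. For 5 hosts the end used by most such models fell in a window. Each is shown with 10 bases upstream, and capitals mark the pyrimidines that follow from the end itself.

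Gas5: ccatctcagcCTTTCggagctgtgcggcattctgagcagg
Snhg12: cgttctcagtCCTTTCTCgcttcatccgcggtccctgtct
Snhg5: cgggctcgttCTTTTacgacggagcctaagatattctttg
Snhg1: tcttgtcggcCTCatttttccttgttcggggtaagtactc
Snhg8: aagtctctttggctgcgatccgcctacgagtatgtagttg

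The Gas5 end, chr1 position 161035166, was shared by 46 of 64 such models and began with C and a run of 5 pyrimidines. Ends were counted over models and not over reads. The models of each library were counted on their own, so a chain read in both libraries can count once for each. The leading Gas5 structure, with 46 and 39 reads, starts at 161035163 in its deposited model. That is the a in the upstream letters agc, which is not a pyrimidine. Snhg5 had 5 of 8 models at its end, with C and a run of 5. Snhg12 rested on 1 model, with C and a run of 8. Snhg1 had 4 of 6 models at its end, with a C and a run of 3, and Snhg8 had 2 models that began with G. By this count of models, a C followed by pyrimidines to a run of at least 5 was found in 3 of 5 hosts. Over the 4217 genes with such an end in a window the share was 2.80%. Gas5 is counted by the end of most models, which its leading structure does not share. The match is a description of these letters and says nothing of translation.

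Gas5 has a gene on the opposite strand, Zbtb37, with 0 and 2 reads. Snhg3 overlaps Rcc1 on the same strand. Rcc1 had 45 and 39 reads, of which 1 and 0 had an exon over an exon of Snhg3-204. Gm17300 and Gm43416, opposite Snhg3 and Dancr, had no reads.

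Of 14 other non-coding snoRNA hosts, 11 matched a gene name in GENCODE M21, 8 were read in both libraries and 7 were tested. None was called different between replicates by the exact binomial test with Benjamini-Hochberg adjustment (1 had an unadjusted p under 0.05), and together they made 243 and 184 CPM (214 ± 41.7 CPM, SD, n = 2). Zfas1 led with 101 and 65 reads, followed by Snhg18 with 25 and 12, Snhg6 with 16 and 16, and Snhg15 with 11 and 19.

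All 4 box C/D snoRNP proteins were tested: Fbl, the methyltransferase (31 and 26 reads), Nop56 (129 and 185), Nop58 (69 and 77) and Snu13 (234 and 191). Of these, 1 of 4 was called. Nop56 was higher in replicate 2 with a log2 ratio of 0.62 (counting SE 0.17) and an adjusted p of 0.00828 by the exact binomial test, but 0.261 on complete models alone, and Nop56 is itself a snoRNA host. None of the 4 box H/ACA proteins was called (1 at an unadjusted p under 0.05): Dkc1, the pseudouridine synthase, had 74 and 78 reads, Nhp2 172 and 133, Nop10 128 and 84, and Gar1 15 and 19. Of 10 nonsense-mediated decay factors 6 were tested and none was called (1 at an unadjusted p under 0.05). Upf3a led with 61 and 94 reads and an adjusted p of 0.0534 by the exact binomial test, followed by Upf3b with 18 and 14, Smg5 with 12 and 14, and Smg8 with 10 and 9.

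By shares of reads over the model classes in both libraries, the genes most like the 7 hosts pooled were Cnot2, Taf6, Uxs1, Camk2g and Zdhhc4, out of 2726 genes with at least 50 reads in each library. Their summed absolute differences in class shares over 2 libraries were 0.44 to 0.54. Camk2g, for example, had 40.6% and 47.1% of its reads on annotated models, beside 44.4% and 47.1% for the pooled hosts. The pooled profile mixes that of Gas5 with those of the other hosts.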

How the data were processed

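Long-read RNA-seq of 2 C2C12 replicates was analysed from the tables and transcript models the authors deposited. Values are whole-number read counts per transcript model, per the file headers. Per the file headers, the models come from an mm10 alignment with GENCODE M21, and unannotated ones name TALON as their source. The aligner is not stated in these files or labels. The authors' models filed as annotated carry annotated coordinates, so read ends and small departures are visible only in the other classes.

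Counts were summed per gene and scaled to CPM over annotated-gene reads. Replicates were compared by exact binomial tests (levels) and Fisher's exact tests (structure use, retention) over all genes, with Benjamini-Hochberg adjustment at 0.05, using SciPy 1.17.1; log2 ratios add 0.5 to each count. Tests were checked on simulated data. edgeR 4.0.16 and DESeq2 1.42.0 gave alternative scalings only. Named genes are the 7 hosts, their 3 most read structures, overlapping genes, the 4 most read genes of each list plus any called, and 5 genes of like class profile. Myf5 was added after the data were seen. The members and lists were chosen with earlier results of these data known. Wilson intervals cover counting error only.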

Additional observations from a re-analysis of the deposited data

Results flagged for a closer look

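Reads assigned to the snoRNA genes themselves lay outside the comparisons, which used host genes. Snora73b had 9 such reads over both libraries (7 and 2) and Snora73a had 7 (5 and 2), each above the 3 reads that a count of 0 allows. Both lie in Snhg3, whose own reads never kept them. Where these reads came from was not tested.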

How the results depend on the processing

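No paired analysis was possible because both libraries belong to 1 group. Over the alternatives run, none called a host different in level, structure use or retention, while the calls over all genes in structure use went from 4 to 276 when all models were counted and to 10 with splice sites moved to annotated ones within 20 bases. The summed host level went from 341 CPM to between 334 and 361 CPM, and the retention share from 16.0% to between 15.7% and 16.2%, under the other scalings, definitions and model sets. With 2 libraries, leaving one out gives the other's own value (311 and 370 CPM, 15.6% and 16.4%) and says nothing of stability. The number of different chains went from 107 to 29 for chains with at least 2 reads in the same library, and to 65 and 70 when replicate 1 or 2 was left out. On complete models alone the log2 ratios of Fbl (0.21), Itga7 (0.26), Nop58 (-0.15) and Smg8 (0.19) changed sign, all uncalled, and Nop56 was no longer called (0.41). Upf3a was called among genes with at least 50 reads (adjusted p of 0.0308 by the exact binomial test). Without genomic-class models the Snhg5 retention difference changed sign (-4.30 percentage points, uncalled). At a minimum of 10 reads in place of 20, 6 hosts were tested for structure use and 6 for retention, and none was called. Dancr was too shallow for these tests.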
